A study of Mus musculus with 18 samples.

Results

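The Bcl2 gene family was examined in Alb-R26Met livers and tumors through 10 of its genes, chosen by symbol out of the 28442 genes in the deposited table. They are the pro-survival genes Bcl2, Bcl2l1 and Mcl1, the effector genes Bax and Bak1, and the BH3-only genes Bid, Bad, Bbc3, Pmaip1 and Bcl2l11. Bulk RNA-seq covered 12 advanced tumors and 6 livers from mice of the same genotype that had not developed tumors. These 18 samples represent 17 mice, as 1 mouse gave both tumor 11 and tumor 12. All mice were male, F1 offspring of Alb-Cre animals of another inbred strain and C57BL/6JRj animals that carry R26stopMet, a conditional mouse-human chimeric Met transgene at the Rosa26 locus. The controls therefore carry the transgene too, and albumin-driven Cre switches it on in hepatocytes and their liver precursors. Livers came from mice 52 to 71 weeks old (median 56.5) and tumors from mice 49 to 72 weeks old (median 65), and none of these animals is described as treated. Each sample name also holds a tag, E19 (2 livers, 7 tumors) or E20 (4 livers, 5 tumors), whose meaning is not given in the sources used here.

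The family controls the permeability of the outer mitochondrial membrane. Pro-survival proteins hold BAX and BAK in check, BH3-only proteins neutralize them or activate BAX and BAK directly, and active BAX and BAK form pores that release cytochrome c and start the caspase cascade. Hepatocytes are known to depend on BCL-XL, the product of Bcl2l1, and on MCL1. The study gave other mice of this model an inhibitor of MEK together with one of BCL-XL. The question here is which of these transcripts differ between tumors and livers before any treatment, and how they vary from tumor to tumor.

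Values are whole-number TPM, a share of all transcripts after correction for gene length, so levels can be compared between genes. The reads behind a value are not known, and any TPM too low to round up to 1 appears as 0. Each sample was also scaled by a trimmed mean of M values, a factor that aligns the bulk of genes between samples. Tests used limma on log2(scaled TPM + 1), with Benjamini-Hochberg adjustment over all 11452 genes kept. Tumor 2 stood apart. A single gene, Siglece, took 82.86% of its total. The range was 21.53% to 53.41% for the remaining tumors and 17.86% to 29.55% for livers. The scaling factor of tumor 2 was 0.190. The deposited values of the 9 members tested were each the lowest of all tumors there, and Bcl2, Bak1 and Bid were listed at 0 there. The 5 hepatocyte markers summed to 38218 to 51086 TPM in livers and 10258 to 76930 TPM in tumors, but they did not move together. After scaling, Alb lay above every liver in 11 tumors and Apoa1 in 10. Cps1 lay below every liver in all 12 tumors and Tat in 8.

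Of the 10 genes, 2 were higher in tumors at an adjusted p under 0.05, and none was lower. They were Bax and Bcl2l11, which encodes BIM. Among all genes tested, 10.3% were higher in tumors and 8.73% lower. Of the other 8 members, 7 were tested without passing the threshold, and Pmaip1 was too low to be tested. In these bulk samples, fewer cells of a type and less RNA per cell cannot be told apart.

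The sequences just before the transcription start are shown for the pair of genes that passed the test. Both are 250 bases from RefSeq on GRCm38.p6, written along the gene's own strand and ending at the base before the start. Bax lies on chr7:45461695-45466903, minus strand, and the stretch shown is chr7:45466899-45467148. The start it precedes lies inside the gene span of RefSeq, so that 5 bases of the stretch fall within that span. Bcl2l11 lies on chr2:128126038-128162547, plus strand, and the stretch before the first of its 2 annotated starts is chr2:128125788-128126037. Neither stretch overlaps an exon in GENCODE vM21. Capitals mark the E-box CACGTG and the FOXO motif GTAAACA, searched on both strands.
Bax: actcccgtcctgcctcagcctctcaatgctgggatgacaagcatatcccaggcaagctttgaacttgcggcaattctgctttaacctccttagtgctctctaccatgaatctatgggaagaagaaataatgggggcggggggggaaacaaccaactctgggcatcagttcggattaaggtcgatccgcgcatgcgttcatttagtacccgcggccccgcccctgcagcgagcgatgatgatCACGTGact
Bcl2l11: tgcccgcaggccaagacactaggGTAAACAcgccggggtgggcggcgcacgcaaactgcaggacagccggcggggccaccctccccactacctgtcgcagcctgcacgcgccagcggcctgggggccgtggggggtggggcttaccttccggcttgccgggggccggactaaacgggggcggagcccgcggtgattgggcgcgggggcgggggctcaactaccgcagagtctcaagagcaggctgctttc
The E-box, a site read by MYC and USF proteins, occurs once before Bax and not before the first start of Bcl2l11, and 6.02% of all 32851 RefSeq promoter stretches of this length hold it. The FOXO motif occurs once before the first start of Bcl2l11 and not before its other start or before Bax, and 3.17% of stretches hold it. Bbc3, a member that was not called, also has both motifs, each before 1 of its 3 annotated starts. FOXO factors are known activators of Bcl2l11. The motif GGGCGG, a GC box, was matched 2 times before Bax and 3 times before the first start of Bcl2l11, and 32.7% of stretches hold it. A match to the full p53 element was found in neither of the stretches shown, as in nearly all stretches, of which 0.0639% hold one. These matches describe letters in this window only.

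Bax encodes an effector that moves to mitochondria and forms the pore. Its deposited level ran from 18 to 36 TPM in livers, with a median of 22, and from 9 to 56 TPM in tumors, with a median of 38. These ranges overlap, because of tumor 2 at 9 TPM and 1 liver at 36 TPM, which lies above several tumors. After scaling, livers ran from 17.01 to 26.4 and tumors from 27.3 to 49.5 scaled TPM, so that every tumor lay above every liver. Of all genes tested, 2.31% had every tumor above every liver. The mean was 37.7 ± 6.81 scaled TPM in tumors (SD, n = 12) and 21.3 ± 4.16 in livers (SD, n = 6). The log2 fold change was 0.80 (SE 0.15, limma adjusted p = 0.000713), or 1.74-fold. Within the E19 samples it was 0.89 (limma adjusted p = 0.0157), and within the E20 samples 0.72 (limma adjusted p = 0.132). Without scaling it was 0.59 (limma adjusted p = 0.355), and without scaling but with tumor 2 left out it was 0.76 (limma adjusted p = 0.00497).

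Bcl2l11 encodes BIM, a BH3-only protein that binds all pro-survival members and can activate BAX and BAK. Its level was low in livers, from 1 to 3 TPM with a median of 2. In tumors it ran from 1 to 9 TPM with a median of 4.5. The lowest tumor was tumor 2, where the deposited 1 TPM became 5.25 after scaling. On the scaled values livers ran from 1.06 to 2.97 and tumors from 2.61 to 8.19, and 11 of 12 tumors lay above every liver. The log2 fold change was 0.92 (SE 0.20, limma adjusted p = 0.00262), or 1.89-fold on a scale that adds 1 to each value and so understates changes at low levels. It was 0.77 within E19 (limma adjusted p = 0.126) and 1.14 within E20 (limma adjusted p = 0.0292). Without scaling it was 0.79 (limma adjusted p = 0.0897), and 0.92 when tumor 2 was left out as well (limma adjusted p = 0.00766). With whole-number values this low, 1 TPM is a large step.

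**Figure D1:**
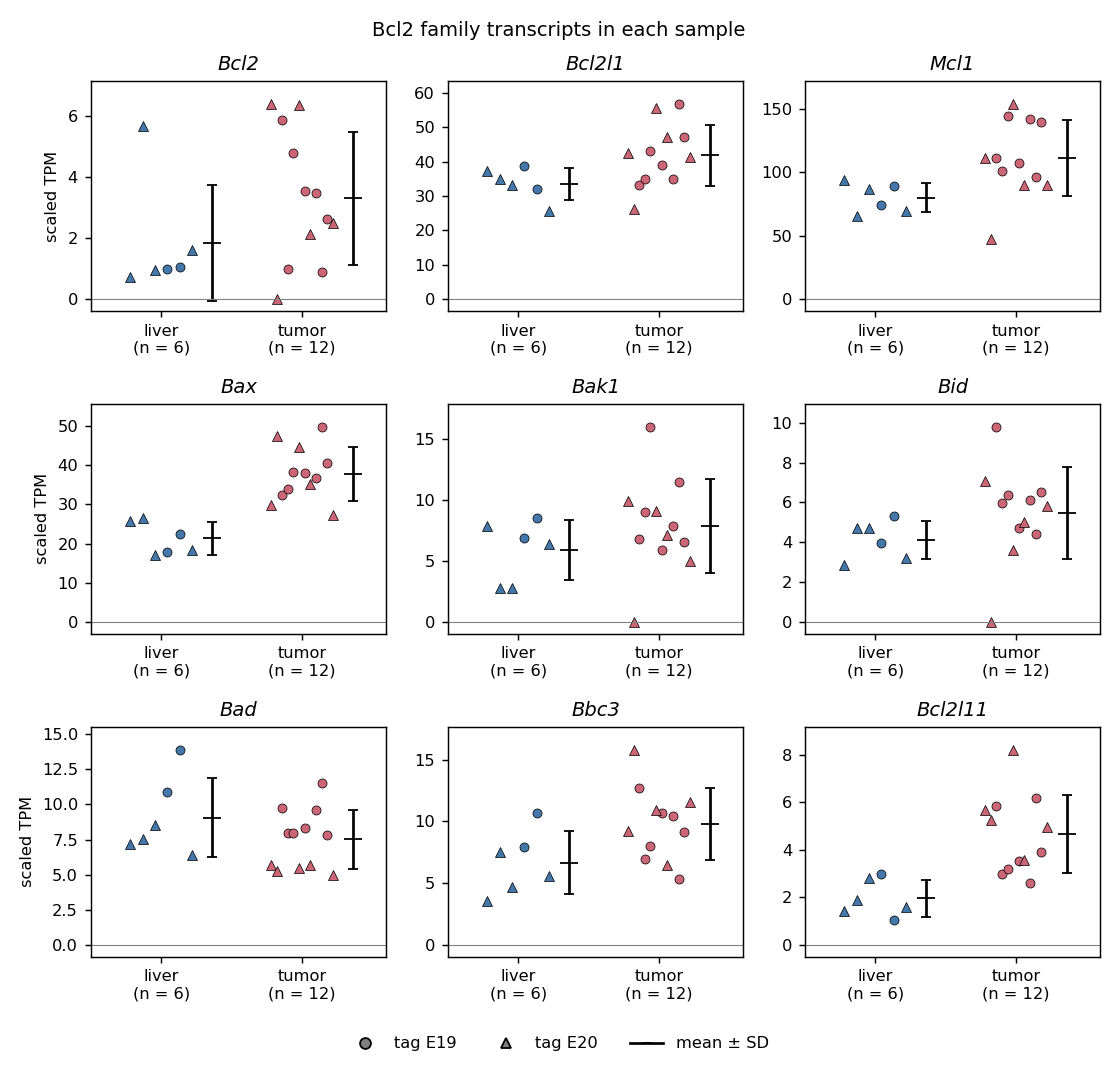
Scaled TPM of 9 Bcl2 family genes in each of 6 livers and 12 tumors, with circles for tag E19, triangles for tag E20 and bars for mean ± SD. The y axes are linear and differ between panels. In the Bax panel all tumors (27.3 to 49.5) lie above all livers (17.01 to 26.4), and the tumor at 0 for Bcl2, Bak1 and Bid is tumor 2.

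By mean TPM, Mcl1 and Bcl2l1 were the most abundant of the 10 members in both groups. Mcl1 encodes a short-lived protein that hepatocytes need. It ran from 70 to 131 TPM in livers (median 85.5) and from 9 to 181 TPM in tumors (median 111.5). After scaling, 9 tumors lay above every liver, and tumor 2, at 47.2, lay below every liver. The log2 fold change was 0.43 (95% interval 0.01 to 0.85, limma adjusted p = 0.156). This call turned on 1 sample, since without tumor 2 the log2 fold change was 0.52 (limma adjusted p = 0.0118).

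Bcl2l1, which encodes BCL-XL, ran from 30 to 52 TPM in livers (median 36) and from 5 to 66 TPM in tumors (median 45). The groups overlapped, with 8 tumors above every liver after scaling and tumors 2, 3, 4 and 9 within the range of the livers. The log2 fold change was 0.29 (95% interval -0.04 to 0.62, limma adjusted p = 0.225). Bcl2, the founding member and a main survival factor of lymphocytes, was low, from 1 to 6 TPM in livers and from 0 to 9 TPM in tumors. Its log2 fold change of 0.57 had a wide interval, from -0.23 to 1.37 (limma adjusted p = 0.340). Within the tags E19 and E20, the log2 fold change was 0.53 and 0.23 for Mcl1, 0.19 and 0.34 for Bcl2l1, and 0.89 and 0.38 for Bcl2, and none of these passed the threshold. Transcripts of lymphocyte markers were nearly absent. 5 T and NK cell markers summed to at most 2 TPM in a liver and 8 TPM in a tumor, with Ncr1 at 0 in all samples, and 4 B cell markers summed to at most 1 and 2 TPM, with Ms4a1 at 0 in all samples.

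In every sample Mcl1 exceeded Bcl2l1, by the deposited values. Mcl1 made up 69.2% ± 4.51 of the summed TPM of the 3 pro-survival genes in livers (SD, n = 6) and 70.6% ± 4.96 in tumors (SD, n = 12). The share of Bcl2l1 was 29.1% ± 3.36 in livers and 27.5% ± 5.60 in tumors, and that of Bcl2 was 1.67% ± 1.82 and 1.97% ± 1.24. These shares do not depend on the scaling. Their group means differ by less than 1 SD.

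Bak1, the other effector, ran from 3 to 11 TPM in livers and from 0 to 20 TPM in tumors. Its highest value was in tumor 5 and its lowest, 0, in tumor 2. The log2 fold change was 0.25 (95% interval -0.60 to 1.09, limma adjusted p = 0.745), and 0.51 without tumor 2 (limma adjusted p = 0.116). Within the E19 samples it was 0.14 (limma adjusted p = 0.811), and within E20 it was -0.00034, which is about 0.

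The remaining BH3-only genes were low in both groups. Bbc3, which encodes PUMA, an activator and a known p53 target, ran from 5 to 10 TPM in livers and from 3 to 14 TPM in tumors. Its log2 fold change was 0.51 (95% interval 0.07 to 0.94, limma adjusted p = 0.10). It was 0.64 without liver 5, the highest liver, and then passed the threshold (limma adjusted p = 0.0415). By tag it was -0.07 within E19 and 0.88 within E20, at limma adjusted p = 0.892 and 0.0942. The difference between tags, 0.94, had an unadjusted p of 0.0283 in the limma fit and an adjusted p of 0.951.

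Bid encodes a protein that is cleaved by caspase 8 and links death receptors to mitochondria. It was 4 or 5 TPM in every liver and ran from 0 to 10 TPM in tumors. Its log2 fold change was 0.20 (limma adjusted p = 0.754), and 0.43 without tumor 2 (limma adjusted p = 0.0568). It was 0.34 within E19 and -0.15 within E20, at limma adjusted p = 0.378 and 0.913.

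Bad, a sensitizer that binds BCL-2 and BCL-XL and is regulated by phosphorylation, was the only tested member with a negative estimate. It ran from 8 to 13 TPM in livers and from 1 to 13 TPM in tumors, and 5 tumors lay below every liver after scaling. These 5 were tumors 1, 2, 6, 8 and 12, the 5 tumors tagged E20. The log2 fold change was -0.24 (95% interval -0.62 to 0.14, limma adjusted p = 0.416). With the tag as a covariate it was -0.40 and passed the threshold (limma adjusted p = 0.0136), and within the tags it was -0.43 and -0.39 (limma adjusted p = 0.156 and 0.244). Pmaip1, which encodes NOXA, a partner of MCL1, was listed at 0 in all 6 livers and in 11 of 12 tumors and at 1 TPM in tumor 5, so it was not tested.

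**Figure D2:**
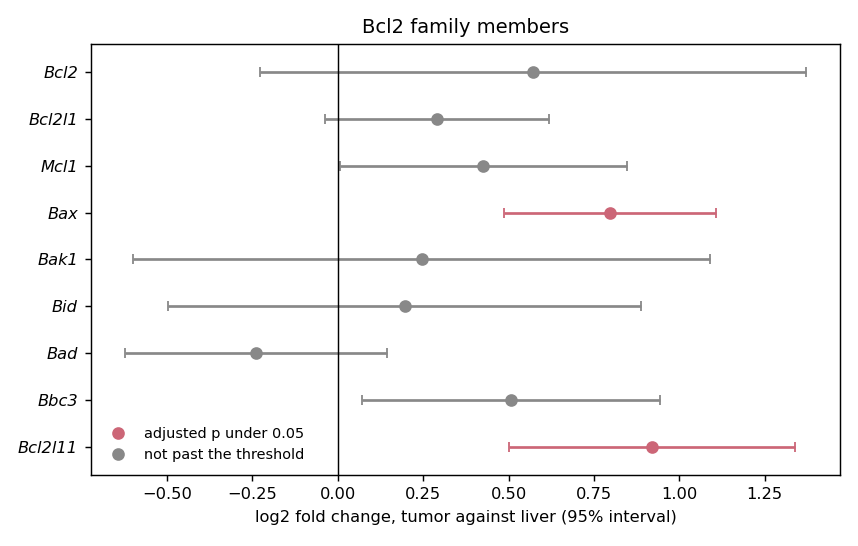
Log2 fold change of tumors against livers for the 9 members tested, with 95% intervals from limma on log2(scaled TPM + 1). Bax (0.80) and Bcl2l11 (0.92) are past an adjusted p of 0.05, and Bad (-0.24) is the only one below 0. The fit without scaling calls neither of them.

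By mean TPM, the order in livers was Mcl1, Bcl2l1, Bax, Bad, Bbc3, Bak1, Bid, Bcl2l11, Bcl2 and Pmaip1. Each of Mcl1, Bcl2l1 and Bax exceeded the next gene in all 6 livers. Bid also exceeded Bcl2l11, and Bcl2 exceeded Pmaip1, in all 6. Other neighbors were less well apart, with Bad above Bbc3 in 5 of 6 livers, Bbc3 above Bak1 and Bak1 above Bid in 4 each, and Bcl2l11 above Bcl2 in 3. In tumors the order was Mcl1, Bcl2l1, Bax, Bbc3, Bak1, Bad, Bid, Bcl2l11, Bcl2 and Pmaip1. Bcl2l1 exceeded Bax in 10 of 12 tumors, Bbc3 exceeded Bak1 in 7, and Bak1 exceeded Bad in 5.

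Ratios between members were compared within each sample as differences of log2(TPM + 1), which no scaling between samples can move except through the added 1. Bax against Bcl2l1, an effector against a pro-survival gene, averaged -0.64 ± 0.28 in livers (SD, n = 6) and -0.14 ± 0.34 in tumors (SD, n = 12). It ran from -1.07 to -0.39 in livers and from -0.58 to 0.74 in tumors, and 9 of 12 tumors lay above every liver. The difference of 0.50 passed the exact permutation test (two-sided, over 18564 splits, p = 0.00366, adjusted over 3 ratios p = 0.0110). Within E19 samples the difference was 0.70 (exact permutation p = 0.0278), and within E20 samples it was 0.36 (exact permutation p = 0.349). With 2 livers and 7 tumors in E19, 0.0278 is the smallest p this test can give, and neither p is adjusted over the 3 ratios. Tumor 2 was the highest, and without it the difference was 0.42 (exact permutation p = 0.00323). This ratio needed no scaling step, whereas the change of Bax itself was not called without scaling unless tumor 2 was left out.

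The ratio of Bcl2l1 to Mcl1 did not pass the test. It averaged -1.23 ± 0.25 in livers and -1.36 ± 0.40 in tumors (SD, n = 6 and 12, exact permutation p = 0.484). Tumors spread to both sides, with 2 above every liver and 5 below, and the difference was -0.34 within E19 and 0.13 within E20 (exact permutation p = 0.389 and 0.508). The ratio of Bax to Bak1 averaged 1.78 ± 0.64 in livers and 2.13 ± 0.52 in tumors (SD, n = 6 and 12, exact permutation p = 0.224). The difference was 0.35, at 0.75 within E19 and 0.26 within E20 (exact permutation p = 0.111 and 0.556). In leaving out 1 sample at a time, it passed the threshold only without liver 2, the liver with the highest ratio, at a difference of 0.57 (exact permutation p = 0.0459).

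**Figure D3:**
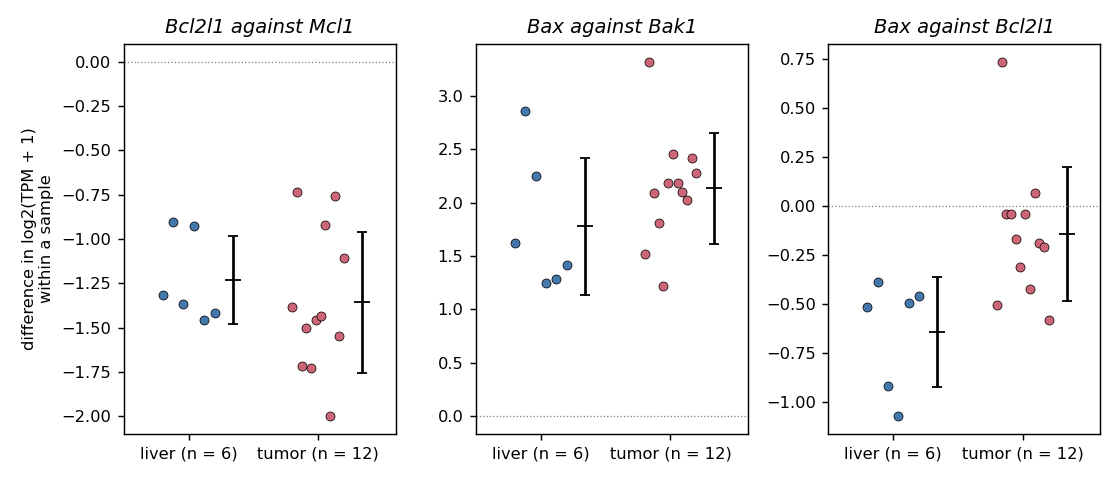
Difference in log2(TPM + 1) between 2 members within each sample, for 6 livers and 12 tumors, with mean ± SD. Bax against Bcl2l1 is higher in tumors by 0.50, and the tumor at 0.74 is tumor 2. The other ratios overlap widely.

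After scaling, between 3 and 7 of the 9 tested members lay above every liver in a given tumor. Over all 11452 genes tested, 16.3% to 25.1% lay above every liver in a given tumor, and 12% to 43.7% lay below, the highest share below being that of tumor 2. Tumors 1 and 6 had 7 such members and tumors 2, 8 and 9 had 3. In tumor 6, Bcl2, Bcl2l1, Mcl1, Bax, Bak1, Bbc3 and Bcl2l11 were above every liver and Bad was below. Tumor 2 had 5 members below every liver, and the others had at most 1, which was Bad. Tumors 11 and 12, from the same mouse, shared Bcl2l1, Bax, Bid and Bcl2l11 above every liver. Mcl1 was above every liver in tumor 11, at 139.9 scaled TPM, and not in tumor 12, at 90.3. They also carry different tags.

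**Figure D4:**
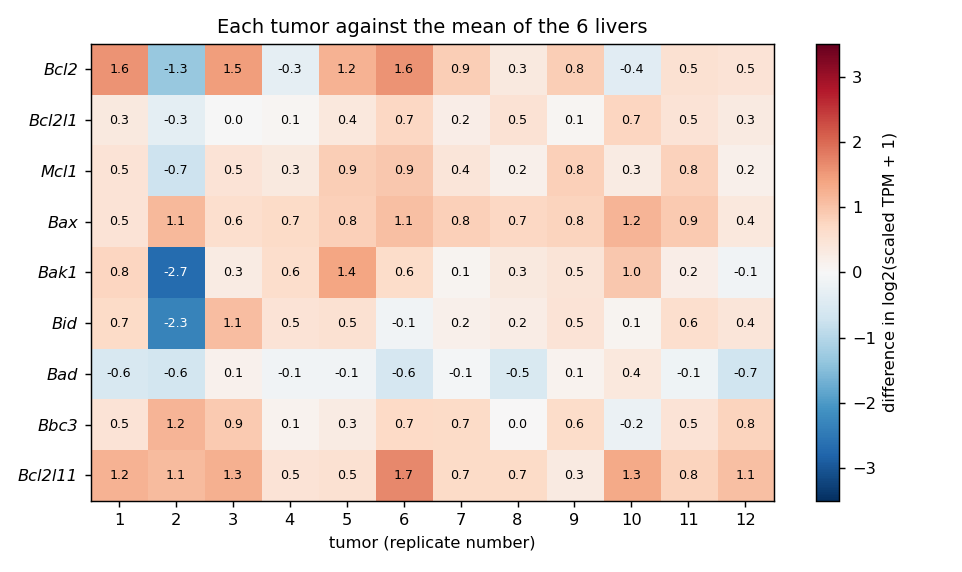
Difference in log2(scaled TPM + 1) between each tumor and the mean of the 6 livers, for 9 members (rows) and tumors 1 to 12 (columns). The Bax and Bcl2l11 rows are above 0 in all tumors, and tumor 2 is low for Bak1, Bid, Bcl2 and Mcl1.

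The spread across tumors was small for the abundant members. Without tumor 2, the SD of log2(scaled TPM + 1) over 11 tumors was 0.24 for Bax, 0.25 for Bcl2l1 and 0.28 for Mcl1, against a median of 0.35 for all genes tested. It was 0.69 for Bcl2, above that of 86.6% of 2479 genes of a like level, which are rounded in the same way. Over the 6 livers the SD of Bcl2 was 0.72, with liver 2 far above the others, so its spread was no larger in tumors. At this level 1 TPM is a large step, and the cause of the spread of Bcl2 was not tested. With tumor 2 the SD rose to 0.45 for Mcl1 and to 1.01 for Bak1.

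Members did not move together from tumor to tumor in a way that passed a test. Over 15 pairs of the 6 members with a value of at least 1 TPM in every tumor, 0 had adjusted permutation p-values under 0.05 for both r and rho. At an unadjusted p under 0.05, there was 1 pair by Pearson's r and 1 by Spearman's rho, the same one. Bcl2l1 and Bbc3 had r = -0.64 (permutation p = 0.0258, adjusted 0.387) and rho = -0.63 (permutation p = 0.0322, adjusted 0.483) over 12 tumors. Without tumors 2 and 10, the farthest from the median of Bcl2l1, r was -0.18, so the relation rests on these tumors. Bcl2l1 and Mcl1 had r = 0.54 and rho = 0.22 (permutation p = 0.0686 and 0.50, adjusted 0.514 and 0.887), and r was 0.29 without the same 2 tumors. Without tumor 2 alone, Bcl2l1 and Bax had the highest r, at 0.64 (permutation p adjusted over 15 pairs = 0.507). The 12 tumors come from 11 mice and share the tags.

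Some genes followed Bcl2l1, Mcl1 or Bax closely in rank over the 12 tumors, as a description of these samples among 5716 genes of a mean log2 value of at least 3. The 3 most like Bcl2l1 were N4bp1 (rho 0.92), Zc3h7b (rho 0.87) and Gda (rho 0.87). For Mcl1 they were Rbis (rho 0.97), Tfg (rho 0.92) and Ost4 (rho 0.91). For Bax they were Col1a1 (rho 0.90), Aga (rho 0.83) and Ssb (rho 0.83). All points share the scaling factor of their sample.

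Of 15 further family genes, 8 were tested and 1 was higher in tumors, with none lower. It was Bok, an effector-like member that ran from 1 to 11 TPM in livers and from 1 to 23 TPM in tumors. Its log2 fold change was 1.02 (SE 0.34, limma adjusted p = 0.0406), and the call was lost with the tag as a covariate, within either tag, without scaling and with the 2 tumors of 1 mouse averaged. It was also lost on leaving out any 1 of livers 1, 3, 4 and 6 or of tumors 3, 4, 5, 7, 10 and 11. Bnip3, a mitochondrial protein linked to mitophagy, was the most abundant of them, at a median of 74.5 TPM in livers and 46.5 TPM in tumors (log2 fold change -0.72, limma adjusted p = 0.247). Bcl2a1c, Bcl2l10 and Hrk were listed at 0 in every sample. The Bcl2a1 genes are near-identical copies, and reads may have been split between them.

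A list of mitochondrial apoptosis genes held apoptosome genes and caspases, released factors, inhibitors of apoptosis and outer membrane channels. Of 19 genes tested in it, 2 were higher in tumors and none was lower, a share of the size seen over all genes. They were Casp2, a caspase (log2 fold change 0.83, limma adjusted p = 0.0109), and Birc5, which encodes survivin and is also a mitotic gene (0.99, limma adjusted p = 0.0180). Neither was called within a tag alone, without scaling or with a minimum of 5 in 6 samples. Birc5 was 0 or 1 TPM in every liver and met the filter through the tumors. The list's median log2 fold change was -0.02, against -0.04 for all genes.

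In the death receptor pathway, 1 of 8 genes tested was higher in tumors. Tnfrsf10b, the mouse TRAIL receptor, was 0 to 2 TPM in livers and 1 to 10 TPM in tumors, and after scaling every tumor lay above every liver. Its log2 fold change was 1.74 (SE 0.26, limma adjusted p = 5.9e-05), and it was called within E19, within E20 and without scaling. The call was lost with a minimum of 5 in 6 samples. Livers reached at most 1.43 scaled TPM and every tumor at least 2.0. Tnfrsf10b thus met the filter through the tumors, so a call could hardly have gone the other way. Of 3 genes that act on the stability of MCL1, the ubiquitin ligase component Fbxw7 was higher (log2 fold change 0.73, limma adjusted p = 0.00684), and was not called without scaling or within a tag. The ligase Huwe1 stood at -0.10 on the log2 scale and the deubiquitinase Usp9x at -0.01 (limma adjusted p = 0.839 and 0.981).

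Bax, Bbc3 and Pmaip1 are textbook targets of p53, as is Tnfrsf10b. Of 13 genes tested in a list of Trp53 and other known targets, 7 were higher in tumors and none was lower. Over all genes tested, 10.3% were higher and 8.73% lower. The median log2 fold change was 0.57 over the 13. This list was chosen with earlier results of these data known, and the part of p53 in the level of Bax was not tested. For Trp53 itself the log2 fold change was 0.57 (limma adjusted p = 0.0387), with no tumor above every liver. This call was lost without scaling, with upper-quartile scaling, within E20, and on leaving out any 1 of livers 2, 3, 4, 5 and 6 or of tumors 5, 6 and 8. Mdm2, the ligase that degrades p53, ran from 4 to 15 TPM in livers and from 3 to 39 TPM in tumors (0.87, limma adjusted p = 0.0111). Phlda3, an AKT inhibitor, had 1.66 (limma adjusted p = 0.0106), Zmat3, an RNA-binding protein, had 1.14 (limma adjusted p = 0.000611), and Trp53inp1 had 0.99 (limma adjusted p = 0.0104). Eda2r, a receptor of the TNF family, was listed at 0 in every liver and at up to 5 TPM in tumors, so it met the filter through tumors alone. Cdkn1a, which encodes the cell cycle inhibitor p21, did not pass the test (0.40, limma adjusted p = 0.437). The count was 5 within E19, 0 within E20 and 2 without scaling, and 8 without tumor 2.

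**Figure D5:**
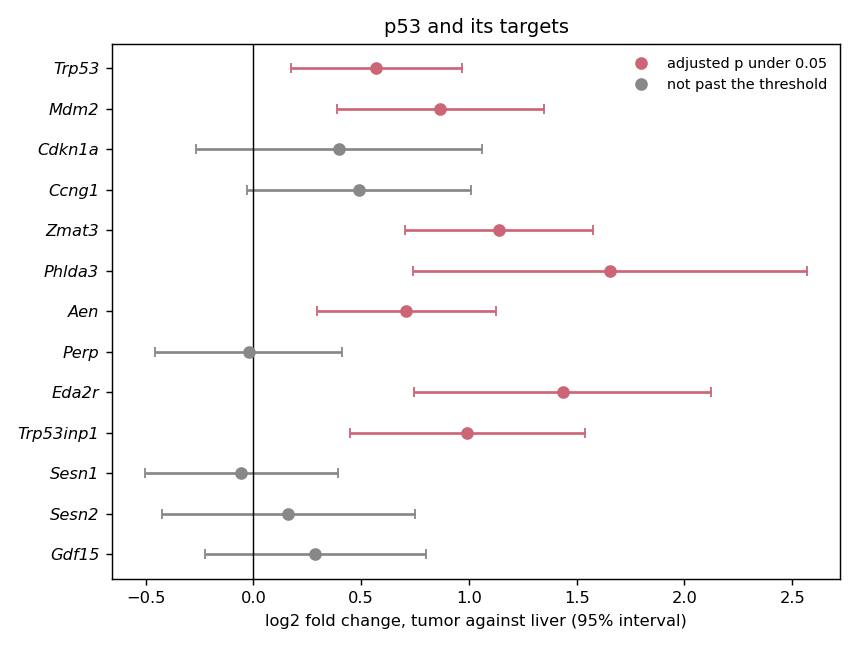
Log2 fold change of tumors against livers for 13 genes of the p53 list, with 95% intervals from limma on log2(scaled TPM + 1). Of these, 7 are past an adjusted p of 0.05, all above 0, and Cdkn1a (0.40) is not. Eda2r was listed at 0 in every liver, so its value depends on the pseudocount.

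Markers of other cells moved with the groups as well. Of 4 endothelial markers, 2 were higher in tumors, with the list's sum at 15 to 33 TPM in livers and 10 to 62 in tumors. Of 5 fibroblast and stellate cell markers, 2 were higher and 2 lower, with sums of 58 to 69 and 7 to 112 TPM. Of 5 macrophage and Kupffer cell markers, 1 was lower, with sums of 33 to 72 and 4 to 67 TPM. All 4 proliferation genes tested of 5 were higher, with sums of 0 to 3 and 3 to 36 TPM. Birc5, already counted above, is 1 of the 4. None of these 4 exceeded 1 TPM in a liver. They met the filter through the tumors, so a call could hardly have gone the other way. Over all genes tested, 10.3% were higher and 8.73% lower. No leukocyte, neutrophil or cholangiocyte marker tested was called, with sums of 14 to 31, 1 to 7 and 4 to 12 TPM in livers and 3 to 50, 0 to 4 and 3 to 16 TPM in tumors. Among 5 hepatocyte markers Apoa1 was higher and Tat lower. Cps1, below every liver in all 12 tumors after scaling, did not pass the test (log2 fold change -1.85, limma adjusted p = 0.109). The part of these cells in the levels of Bax and Bcl2l11 was not tested.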

How the data were processed

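RNA-seq of 12 tumors and 6 livers was used, and groups and tags were taken from the sample labels. The authors purified poly-A RNA, aligned reads to GRCm38 (mm10) and estimated TPM per gene using Salmon. The deposited table is a score in whole numbers, which the authors call raw counts. It was read as rounded TPM, because 882 of 900 TPM values of the study's supplement, for 50 genes, equal it after rounding and no sample's total exceeds 907513. Totals ran from 835144 to 907513, and as TPM they carry no depth, so no counting intervals are given. The submitters' processing notes also name edgeR, with no role given. The table has 28442 genes, and 8 lines with an extra separator were read accordingly.

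To scale the samples, a trimmed mean of M values was taken against a reference sample (30% of M and 5% of A values trimmed at each end). Genes whose scaled value reached 1 in 6 or more samples entered limma 3.58.1 (R 4.3.3, trended prior variance) as log2 values with a pseudocount of 1. Simulated data for 12 tumors against 6 livers served as a check of the code. In it, 198 of 200 genes changed 3-fold were called. Of the other genes among 11368 tested, 6 were called, and 0 of 11384 were called when nothing had been changed. Noise was drawn for each gene on its own, with its SD capped and no effect of tag or mouse. The 3-fold changes also exceed those of Bax and Bcl2l11, so these rates do not carry over to the present data. Ratios were compared with an exact permutation test of the sample labels, and correlations with 100000 permutations, in Python 3.11.15 with numpy 2.4.6 and scipy 1.17.1. Nothing says whether the tissue samples were handled in separate runs, so p-values measure the spread between these samples.

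Members and gene lists were chosen with earlier results of these data known. From each further list the genes named are those called with the largest log2 fold changes, at most 4, plus Trp53, Mdm2 and Cdkn1a. Bnip3, Bcl2a1c, Bcl2l10, Hrk, Huwe1, Usp9x, Ncr1 and Ms4a1 were named after their values were seen. Some items are not reported here. For Bcl2l1, Mcl1 and Bax, the 3 genes with the highest Spearman rho over tumors are named. Positions are those of RefSeq, matched by Entrez identifier for all 10 members. Promoters, also of RefSeq, were matched in the same way for the 9 members tested.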

Additional observations from a re-analysis of the deposited data

Results flagged for a closer look

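Among 21 sets of 6 livers, 3 held 1 liver far from the others by Dixon's test at the 95% level, where chance gives about 1 in 20, and 2 of the 3 are the same gene and sample on a different scale. Bcl2 in liver 2 was 6 TPM against 1 to 2 TPM in the other livers, a gap of 0.8 of the whole range, and on the scaled values it was 5.66 against 0.717 to 1.6, a gap of 0.821. Mcl1 in liver 1 was 131 TPM against 70 to 92 TPM, a gap of 0.639. On the scaled values that liver was no longer far from the others for Mcl1, since its scaling factor was 1.39. No member differed between the tags in its change from livers to tumors at an adjusted p under 0.05 in the limma fit.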

How the results depend on the processing

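The count of 2 members called was 0 without scaling, 1 with a minimum of 5 in 6 samples (where Bcl2l11 was not tested), 1 within E19 (Bax), 1 within E20 (Bcl2l11) and 6 with sample quality weights (Bcl2l1, Mcl1, Bax, Bid, Bbc3 and Bcl2l11). It ran from 2 to 3 with each sample left out, with Bax and Bcl2l11 called each time, and Mcl1 added without tumor 2 or Bbc3 without liver 5. An alternative chosen after seeing the data, no scaling with tumor 2 left out, gave 3. Without scaling the median log2 fold change of all genes was -0.18, against -0.04 with it. Estimates of opposite sign came within a single tag, for Bak1 (-0.00034 in E20), Bid (-0.15 in E20), Bbc3 (-0.0731 in E19) and the ratio of Bcl2l1 to Mcl1 (0.13 in E20, exact permutation p = 0.508). The ratio of Bax to Bcl2l1 was 0.36 in E20 (exact permutation p = 0.349), and 0.41 to 0.55 with each sample left out. The ratio of Bax to Bak1 ran from 0.25 to 0.57 with each sample left out, and the ratio of Bcl2l1 to Mcl1 from -0.18 to -0.06. Correlated pairs numbered 1 without scaling, where tumor 2 is low in every member, and 0 with each tumor left out. In all, 2175 genes were called, 1341 without scaling, 413 within E20, 1344 within E19, 4579 with quality weights and 3207 without tumor 2. Of the causes of these shifts, none was tested.

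Livers and tumors 1 to 6 share replicate numbers, but these do not mark 1 animal. Deviations of same-numbered samples had a mean correlation of 0.174 (from -0.135 to 0.436), and 3 of 6 livers correlated best with their own number. Same-numbered samples also carry the same tag, except for number 3, and the part of the tag in these correlations was not tested. With a replicate block 2 members were called, and 2 in the same 12 samples unblocked, with 1359 and 1212 genes called in all. The paired differences of the ratios were 0.59 for Bax to Bcl2l1, 0.24 for Bax to Bak1 and -0.19 for Bcl2l1 to Mcl1 (exact sign-flip permutation p = 0.0312, 0.250 and 0.156, the smallest possible being 0.0312). The block changed no call of a member, and the p53 list had 3 genes called with and without it in these 12 samples. The paired p-values of the ratios are not adjusted over the 3 ratios, unlike those of the main test. They therefore do not show that the call of Bax to Bcl2l1 holds with a block. Values in whole TPM limit what can be seen for Bcl2, Bcl2l11 and Pmaip1.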
